A study of Homo sapiens with 12 samples.

Results

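Aldo-keto reductases are NADPH-dependent enzymes that reduce aldehydes and ketones to alcohols. The 8 genes described here were chosen by symbol and are AKR1B1, AKR1B10, AKR1C1, AKR1C2, AKR1C3, AKR1C4, AKR1D1 and AKR7A2. They are 8 of 28265 genes in the expression table, and 7 of them carry 24 of the 46178 regions in the table of N6-methyladenosine (m6A). The genes were measured in HepG2 cells, an established human hepatocellular carcinoma line, treated with toosendanin, a plant triterpenoid known for liver toxicity, or labelled as control. Each condition had 3 libraries of RNA pulled down with an m6A antibody (IP) and 3 of the RNA before it (input), or 12 in total. Dose, time and what the control cells received are not in the labels, and neither is whether replicates were separate cultures, so p-values may reflect technical spread alone. The tables hold the authors' comparison and counts summed over libraries, so values in each library were not analysed here.

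In liver, the AKR1C enzymes reduce and oxidise the hydroxyl and keto groups of steroid hormones, prostaglandins and bile acids, and AKR1D1 reduces the double bond of the steroid ring on the way to bile acids. The AKR1B enzymes reduce glucose, retinal and the aldehydes of lipid peroxidation, and AKR7A2 reduces dialdehydes, among them one derived from aflatoxin. Several AKR1B and AKR1C genes are textbook targets of NRF2, the transcription factor of the response to electrophiles, and AKR1B10 is known for high levels in liver tumours. In RefSeq (GRCh38.p14), AKR1C1 to AKR1C4 lie in one cluster on chromosome 10, and AKR1B1 and AKR1B10 neighbour each other on chromosome 7.

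The bases before the start sites of AKR1C1, AKR1C2 and AKR1C3 are shown because these neighbouring genes had different values after toosendanin. AKR7A2 is shown because it was the member with the core of the antioxidant response element, the motif that NRF2 binds, in this window. RefSeq windows (GRCh38.p14) were found for 7 of 8 members, all but AKR1B10, and each printed run is the 250 bases before the start, 5′ to 3′ on the strand of the gene. The AKR1C1 window is chr10:4963165-4963414 on the plus strand and AKR1C2 is chr10:5003858-5004107 on the minus strand. The first AKR1C3 window is chr10:5048531-5048780 on the plus strand and the first AKR7A2 window is chr1:19312147-19312396 on the minus strand. A second AKR1C3 window, chr10:5094164-5094413 on the plus strand, is not printed. The expression values are per gene, so they do not tell these AKR1C3 starts apart. In AKR1C1, capitals mark the bases that AKR1C2 does not match in a pairwise alignment. In AKR1C2 and AKR1C3 they mark the bases that AKR1C1 does not match. Bases in a gap or past the end of the other window count as not matched. In AKR7A2, capitals mark the core motif.
AKR1C1: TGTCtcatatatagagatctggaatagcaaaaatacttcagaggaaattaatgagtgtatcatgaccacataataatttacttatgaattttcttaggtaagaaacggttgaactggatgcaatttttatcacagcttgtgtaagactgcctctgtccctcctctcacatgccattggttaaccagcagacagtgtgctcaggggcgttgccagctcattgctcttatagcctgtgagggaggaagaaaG
AKR1C2: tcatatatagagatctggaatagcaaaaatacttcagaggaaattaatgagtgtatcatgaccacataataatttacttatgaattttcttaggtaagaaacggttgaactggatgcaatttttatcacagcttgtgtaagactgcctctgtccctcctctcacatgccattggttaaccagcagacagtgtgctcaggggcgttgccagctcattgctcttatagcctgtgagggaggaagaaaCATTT
AKR1C3: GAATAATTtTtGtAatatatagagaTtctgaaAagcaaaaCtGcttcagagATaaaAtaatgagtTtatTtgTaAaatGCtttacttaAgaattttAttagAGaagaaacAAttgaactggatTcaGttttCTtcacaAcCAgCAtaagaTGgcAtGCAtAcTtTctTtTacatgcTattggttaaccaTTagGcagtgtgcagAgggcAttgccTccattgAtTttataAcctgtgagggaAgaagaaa
AKR7A2: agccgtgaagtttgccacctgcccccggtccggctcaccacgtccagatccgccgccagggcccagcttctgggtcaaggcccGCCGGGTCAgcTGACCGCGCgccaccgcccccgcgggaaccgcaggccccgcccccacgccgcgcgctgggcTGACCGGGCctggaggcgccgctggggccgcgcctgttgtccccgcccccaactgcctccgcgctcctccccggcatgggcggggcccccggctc

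AKR1C1 and AKR1C2 shared an unbroken run of 245 of these 250 bases. The first AKR1C3 window matched AKR1C1 at 189 bases (75.6%), its second window at 187 (74.8%), and the AKR1C4 window at 173 (69.2%). These percentages are of all 250 bases, so bases in gaps or past the end of the other window count as not matched. Among aligned bases, 50, 45 and 41 differed, in the same order. Both strands were searched for the core TGACNNNGC (GCNNNGTCA on the other strand). It was found 3 times in the first AKR7A2 window, at bases that do not overlap each other, and 0 times in the windows of the other members. Of the 35116 windows in the RefSeq table, 10.9% held it. A CCAAT box (CCAAT, or ATTGG on the other strand) was found once each in AKR1C1, AKR1C2, both windows of AKR1C3 and the first window of AKR1B1, against 32.0% of all windows. In AKR1C1 it began 77 bases before the start. A match is a description of letters, and no match says only that these letters are not in this window.

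Among the 8 members, AKR1C1 and AKR1B1 rose after toosendanin, AKR1C3 fell and the other 5 did not pass the test. The authors' deposited DESeq2 table thus called 3 of 8 (37.5%), at an adjusted p under 0.05, against 31.4% of the 16552 genes with an adjusted p. In the authors' deposited table, 2 members were called higher, where 15.7% of all genes were, and 1 was called lower, where 15.7% were. The median log2 fold change of the members in the authors' deposited table was -0.06, against -0.00023 over all genes with an adjusted p. The share called is close to that of all genes, so the count says nothing particular about the family. All log2 fold changes below are toosendanin over control, with ± as the standard error of the authors' fit. In bulk RNA, fewer cells of a type and less RNA per cell cannot be told apart.

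**Figure D1:**
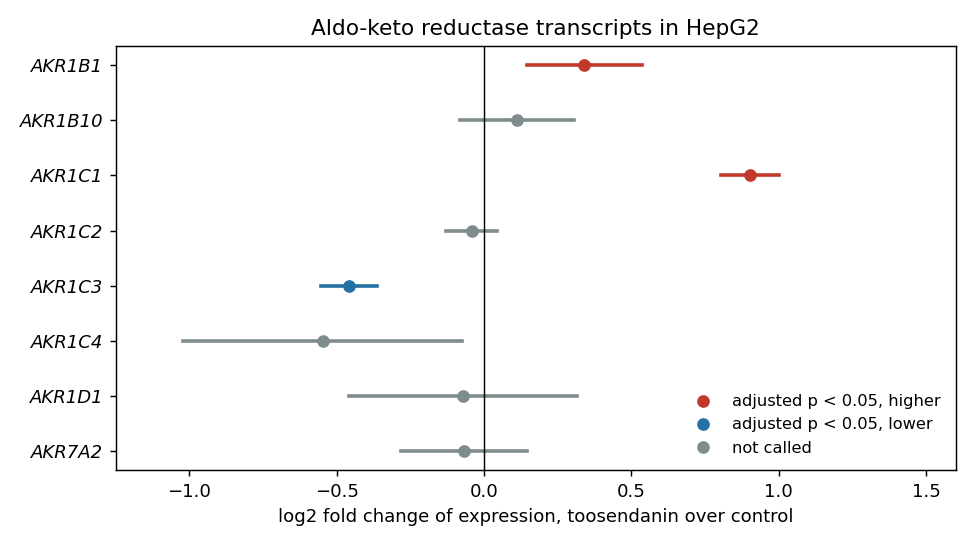
Log2 fold change of expression (toosendanin over control, horizontal axis) for the 8 genes, as points with 95% intervals from the deposited standard errors. AKR1C1 stands at 0.90, AKR1B1 at 0.34 and AKR1C3 at -0.46, and the intervals of AKR1B10, AKR1C2, AKR1D1 and AKR7A2 hold 0. AKR1C4, which was not called, stands at -0.55 with an interval below 0.

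Of the enzymes that act on steroids and prostaglandins, AKR1C1, which inactivates progesterone, rose by 0.90 ± 0.05 in the authors' deposited DESeq2 table (adjusted p = 1.68e-69). This is 1.87-fold, with a 95% interval of 1.75 to 2.002 from the deposited standard error, and lies at the 89.7th percentile of the log2 fold changes of all genes with an adjusted p. AKR1C2, which reduces dihydrotestosterone and binds bile acids, stood at -0.04 ± 0.04 in the authors' deposited DESeq2 table (adjusted p = 0.538). Its 95% interval ran from -0.13 to 0.05, well below the interval of AKR1C1, 0.80 to 1.002. The pair thus had different values behind a near-identical stretch of sequence. AKR1C3, which makes testosterone and prostaglandin F, fell by 0.46 ± 0.05 in the authors' deposited DESeq2 table (adjusted p = 1.69e-19), to 0.728 of control (95% interval 0.682 to 0.778).

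AKR1C4, a liver enzyme of bile acid synthesis, stood at -0.55 ± 0.24 in the authors' deposited DESeq2 table, with an adjusted p of 0.0695. Its point estimate was further below 0 than that of AKR1C3, with a wide interval (-1.02 to -0.07) at a mean normalized count of 210.4. That interval lies below 0, and the unadjusted DESeq2 p was 0.0234. After adjustment over all genes AKR1C4 did not pass, so a fall was not called. AKR1D1, which acts beside AKR1C4 in bile acid synthesis, stood at -0.07 ± 0.20 in the authors' deposited DESeq2 table (adjusted p = 0.848). The AKR1D1 interval ran from -0.46 to 0.32 in the authors' deposited table.

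Of the enzymes that reduce aldehydes, AKR1B1, the aldose reductase that turns glucose into sorbitol, rose by 0.34 ± 0.10 in the authors' deposited DESeq2 table (adjusted p = 0.00321), or 1.27-fold (95% interval 1.11 to 1.45). AKR1B10, which reduces retinal and lipid aldehydes, stood at 0.11 ± 0.10 in the authors' deposited DESeq2 table (adjusted p = 0.444). The intervals of AKR1B1 (0.14 to 0.54) and AKR1B10 (-0.08 to 0.31) overlapped, and their difference was not tested. AKR7A2 stood at -0.07 ± 0.11 in the authors' deposited DESeq2 table (adjusted p = 0.714), with an interval of -0.28 to 0.15.

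**Figure D2:**
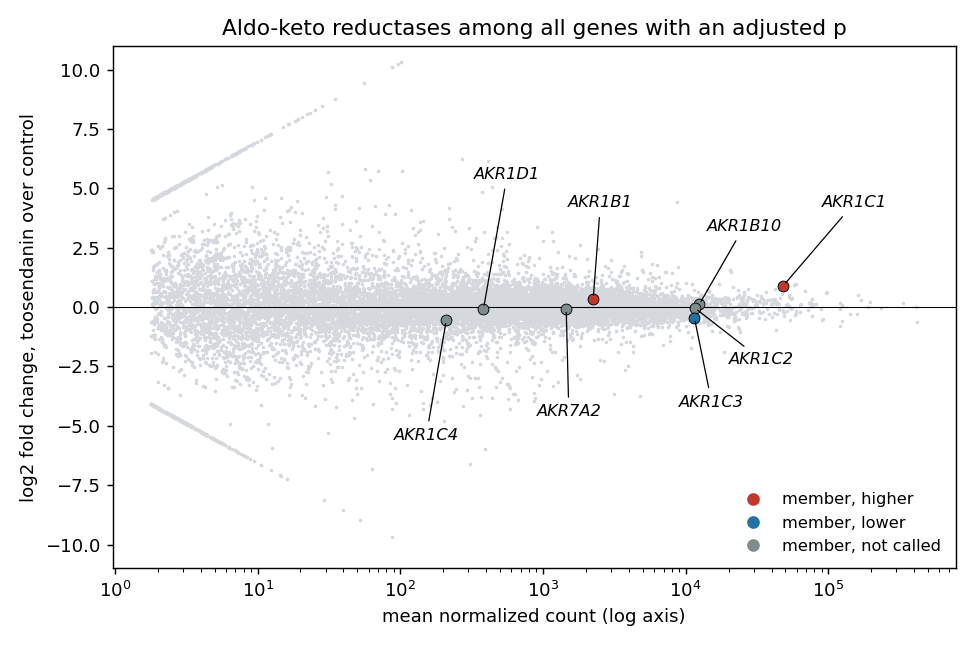
Log2 fold change (toosendanin over control, vertical axis) against mean normalized count (log axis) for all genes with an adjusted p in grey and the 8 members as labelled points. AKR1C1 lies above 0 among the genes with the highest means, and the members lie within the dense band of genes near 0.

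Counts behind these values differed widely. The mean normalized counts in the authors' deposited table were 48370 for AKR1C1, 12464 for AKR1B10, 11632 for AKR1C2, 11531 for AKR1C3, 2251 for AKR1B1, 1456 for AKR7A2, 383.2 for AKR1D1 and 210.4 for AKR1C4. They are not scaled to transcript length, so they give the depth behind each gene and no order of levels between genes. The 4 members with the highest counts include both a called rise and a called fall, and the standard errors were largest for the 2 with the fewest counts, AKR1C4 and AKR1D1. The AKR1C genes are close copies of each other, as are AKR1B10 with AKR1B15 and AKR7A2 with AKR7A3 and AKR7L. The sources used here do not say how reads that match several copies were counted, so the split of values between copies is uncertain.

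The summed inputs gave a second count of expression from the same experiment. The labels list no other libraries of RNA before the pull-down, so the deposited DESeq2 test probably rests on the same reads. AKR1C1 had 32067 input reads in control and 44893 after toosendanin over its 7 regions, or 939.5 and 1851 per 1000000 reads of the column. AKR1C1 was therefore higher after toosendanin in the inputs too, by 0.98 on the log2 scale after centring on the median gene (95% interval 0.96 to 0.998, counting error only). AKR1C3 had 11611 and 6765 input reads over 2 regions, 340.2 and 278.9 per 1000000, and a centred log2 change of -0.29 (-0.33 to -0.24). AKR1B1 had 1023 and 880 input reads in its 1 region, 29.97 and 36.28 per 1000000, and 0.27 (0.14 to 0.40). All 3 had the direction of the deposited test, which is no independent support if the reads are the same.

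AKR1C2 had 15979 input reads in control and 12140 after toosendanin over 8 regions, 468.2 and 500.6 per 1000000. Its centred log2 change of 0.10 (0.06 to 0.13, counting error only) stood above 0, where the authors' deposited table gives -0.04. AKR1B10 stood at 0.09 (0.05 to 0.13), AKR1D1 at -0.21 (-0.45 to 0.03) and AKR7A2 at -0.09 (-0.23 to 0.04) in the inputs. AKR1C4 had no region and hence no input count.

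AKR1C2 was the member whose regions went both ways in the input. Regions are numbered in the order of the table, which need not be their order in the gene, and their positions are not given in the files used here. Scaled to the column totals, the input of AKR1C2 regions 1 and 5 was lower after toosendanin, at -0.27 (95% counting interval -0.34 to -0.20) and -0.43 (-0.51 to -0.35). That of AKR1C2 regions 2, 4, 6 and 8 was higher, at 0.56 (0.47 to 0.64), 0.41 (0.35 to 0.48), 0.55 (0.42 to 0.67) and 0.84 (0.10 to 1.58). Regions 3 and 7 of AKR1C2, with 17 and 14 control input reads, had intervals that hold 0. The input change of the whole AKR1C2 gene thus adds up regions with intervals on both sides of 0.

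All 7 regions of AKR1C1 were higher in the input, between 0.62 and 1.77, and both regions of AKR1C3 were lower, at -0.35 and -0.14. Over all members, the interval lay above 0 in 14 of 24 regions and below 0 in 4, against 21.9% and 18.9% of all regions of the table. These intervals narrow with depth, and the shares are not matched for depth. Regions of 1 gene share their libraries and are not replicates. AKR1C1 region 2, with 995 and 1086 input reads, had the smallest change of that gene.

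AKR1C1 region 2 and AKR1C2 region 6 had almost the same counts. The AKR1C1 region had 607 IP and 995 input reads in control and 546 IP and 1086 input reads after toosendanin. The AKR1C2 region had 606, 1013, 544 and 1051 in the same order. The 4 counts differed by at most 3.22%. Of 222 pairs of regions of different members that were compared, only this 1 agreed within 5% in all 4 counts. Whether both regions hold the same reads was not tested.

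**Figure D3:**
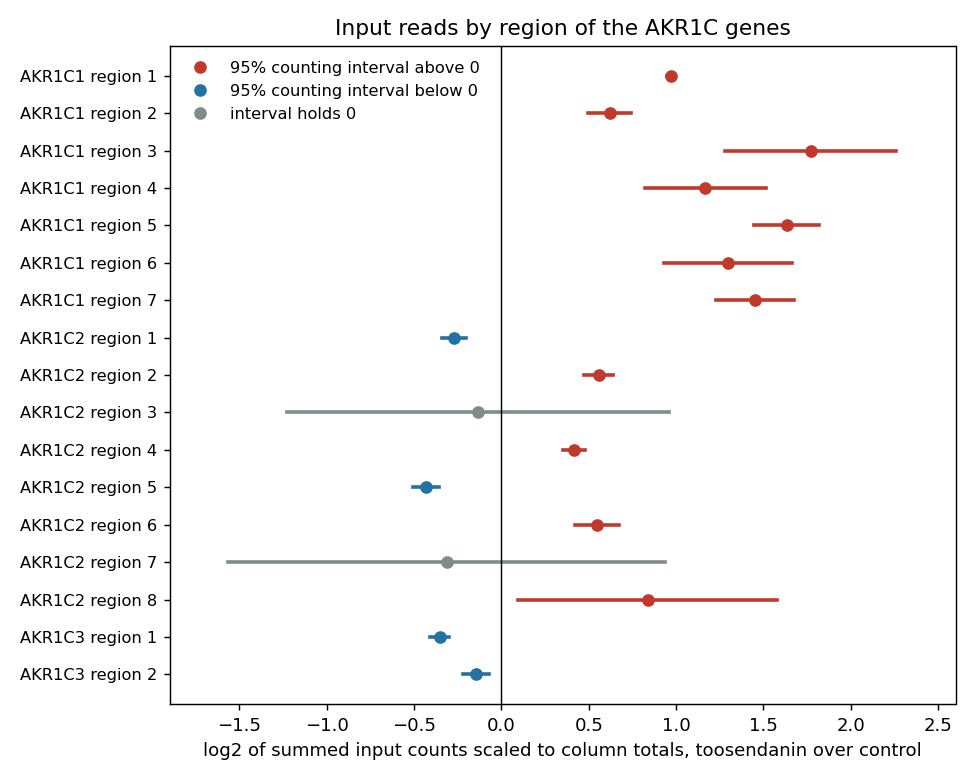
Log2 change of the summed input counts, scaled to column totals (toosendanin over control, horizontal axis), for each region of AKR1C1, AKR1C2 and AKR1C3, with 95% intervals that hold counting error only. All 7 AKR1C1 regions lie above 0, both AKR1C3 regions below 0, and AKR1C2 has 4 regions above and 2 below.

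The transcripts of these genes had low IP over input ratios. Summed over regions, the IP over input ratio in control, scaled to column totals, was below 1 for all 7 members with regions, with log2 values from -1.40 for AKR7A2 to -0.19 for AKR1D1. Among 11871 genes with at least 10 summed input reads in each condition, 47.1% were below 1. By region, 9 of 24 member regions had a control ratio above 1, against 48.3% of all regions. In AKR1C1, region 1 held 94.3% of the control input reads and stood at -1.17 (95% counting interval -1.19 to -1.14), while regions 4, 5 and 7 stood above 0, at 0.80 (0.48 to 1.13), 0.59 (0.40 to 0.79) and 0.84 (0.62 to 1.06).

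**Figure D4:**
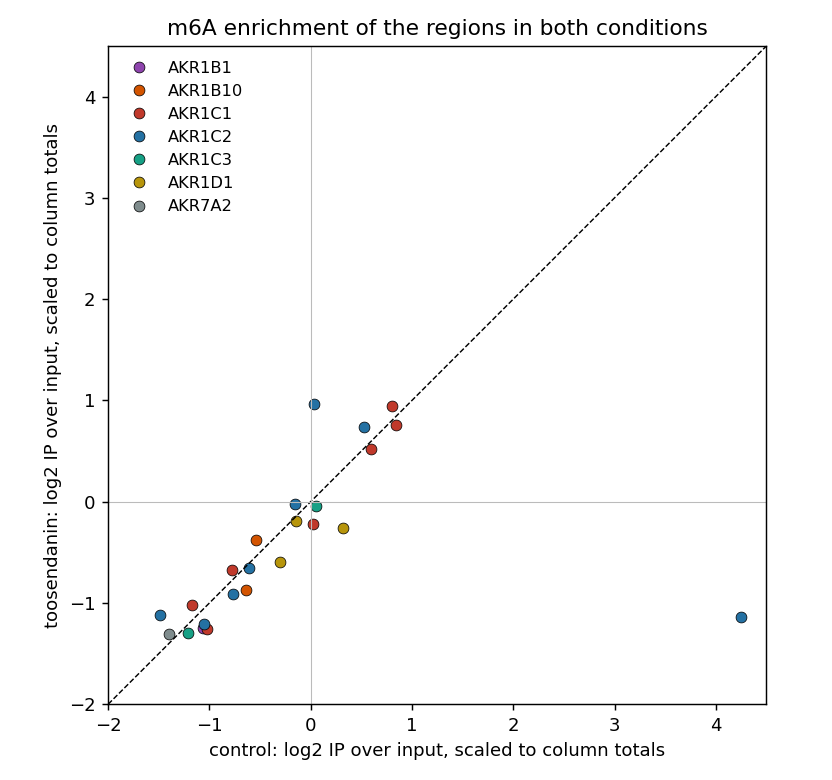
Log2 IP over input ratio, scaled to column totals, in control (horizontal axis) and after toosendanin (vertical axis) for the 24 regions, coloured by gene, with a dashed line of equality. Most points lie near the line, and AKR1C2 region 3 lies far from it, at 4.25 in control and -1.14 after toosendanin.

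Changes in m6A after toosendanin were small in the regions that passed the test. The authors' deposited table called 7 of the 20 member regions with an FDR (35.0%), at an FDR under 0.05, against 8.95% of all 24688. In the authors' deposited table, 2 of these were higher, where 2.71% of all regions were, and 5 were lower, where 6.24% were. The p-values of this table hold counting error only. The called member regions were deeply counted, with a median of 8881 reads over the 4 sums against 5499 for all called regions. The depth of all tested regions is not given here, so the shares called are not matched for depth. Their absolute log2 changes ran from 0.06 to 0.32, with a median of 0.20 against 0.32 for all called regions. With p-values adjusted anew over all regions that have one, AKR1C1 region 1, AKR1C2 region 5 and AKR1C3 region 1 were again called, and the calls of AKR1B1, AKR1C1 region 2, AKR1C2 region 2 and AKR1C3 region 2 were lost. These 4 were also lost with the summed counts centred on the median region, where 3 member regions were higher and 2 lower. The same 4 and AKR1C3 region 1 were lost with counts scaled to column totals, where 3 were higher and 1 lower. The share of all regions called under these alternatives is not given here.

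AKR1C3 was lower in both of its regions. Region 1 had 10339 IP and 8047 input reads in control and 5212 IP and 4474 input reads after toosendanin. The authors' deposited table gives it -0.16 (95% counting interval -0.23 to -0.09, FDR = 0.000306). Region 2 of AKR1C3, with 1911 and 3564 control reads and 1115 and 2291 after toosendanin, stood at -0.20 (-0.33 to -0.07, FDR = 0.0392) in the authors' deposited table. AKR1C3 is the member that was lower both in expression and in the m6A ratio of every region it has. Centred on the median region, AKR1C3 region 1 stood at -0.13 and region 2 at -0.12, and scaled to column totals neither passed, at -0.09 each.

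AKR1C1 and AKR1C2 each had 1 region called higher and 1 called lower. AKR1C1 region 1, with 16693 IP and 30249 input reads in control and 24921 and 42155 after toosendanin, stood at 0.06 (0.03 to 0.10, FDR = 0.0105) in the authors' deposited table. Centred on the median region AKR1C1 region 1 stood at 0.11 and scaled to column totals at 0.15, both above that interval. AKR1C1 region 2 stood at -0.31 (-0.52 to -0.10, FDR = 0.044) in the authors' deposited table. The counts of this lower region are almost those of AKR1C2 region 6, which stood at -0.24 (-0.45 to -0.03, FDR = 0.14) there. The other AKR1C1 regions were not called or had no FDR, and regions 4, 5 and 7, which stood above input in control, were at 0.08, -0.13 and -0.20 in the authors' deposited table with intervals that hold 0.

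AKR1C2 region 5, with 1785 IP and 4031 input reads in control and 1176 and 2125 after toosendanin, stood at 0.26 (0.13 to 0.39, FDR = 0.00259) in the authors' deposited table. AKR1C2 region 2, with 1647 and 2263 reads in control and 1505 and 2367 after toosendanin, stood at -0.20 (-0.33 to -0.07, FDR = 0.0339). Region 5 is one of the AKR1C2 regions with lower input and region 2 one of those with higher input. The ratio and the input thus had opposite signs in both. The input is the denominator of the ratio, so opposite signs are partly built in. Scaled to column totals, the IP reads alone changed by -0.06 (-0.17 to 0.04) in region 5 and 0.41 (0.31 to 0.51) in region 2. AKR1B1, the aldose reductase, had 605 IP and 1023 input reads in control and 445 and 880 after toosendanin in its 1 region. It stood at -0.32 (-0.54 to -0.10, FDR = 0.0483) in the authors' deposited table, just under the threshold, and was not called after centring, at -0.21, or scaling to totals, at -0.18.

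Among the 24 member regions the largest change was that of AKR1C2 region 3, which has no FDR in the authors' deposited table. Its IP reads were 402 in control and 6 after toosendanin, while its input reads were 17 and 11. The authors' deposited table gives this AKR1C2 region -5.45 (95% counting interval -7.05 to -3.85), with an unadjusted p of 2.24e-11. In control this region lay at the 99.9th percentile of IP over input of all regions, with a log2 ratio of 4.25 (3.55 to 4.95). With a new adjustment over all regions with a p-value it was called lower. How the 402 IP reads were spread over the 3 control libraries was not analysed here.

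**Figure D5:**
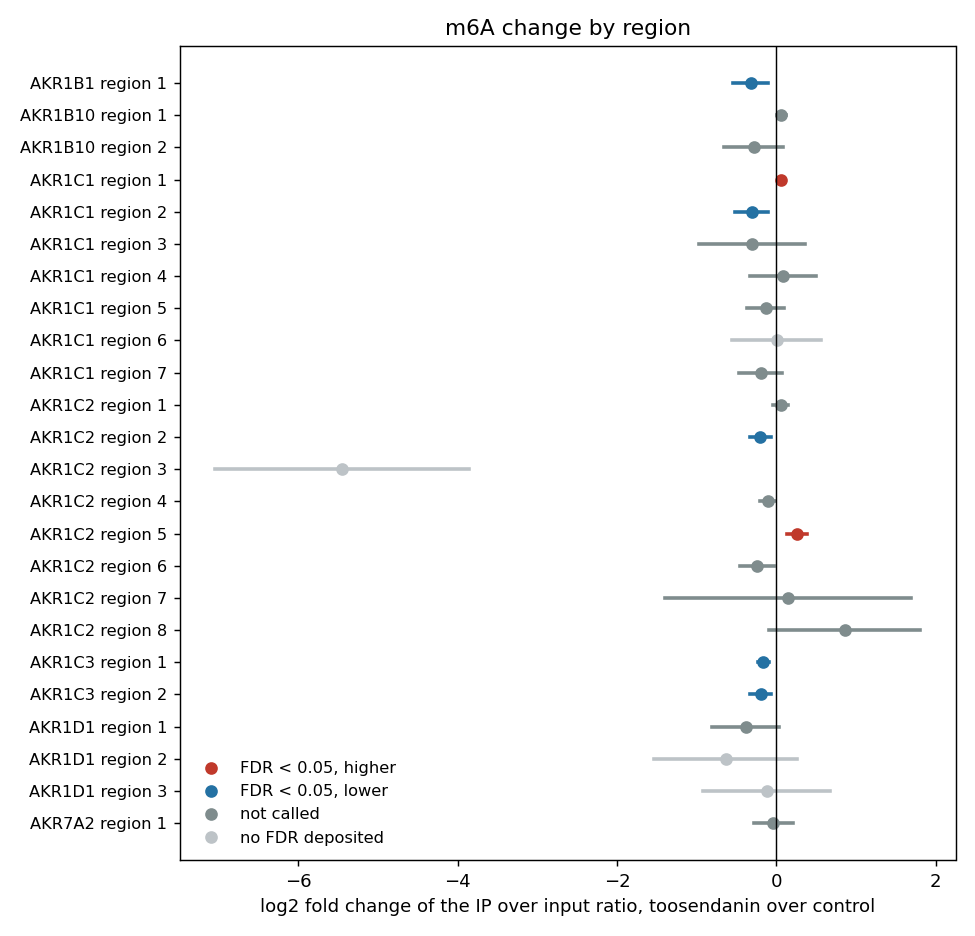
Deposited log2 change in IP over input (toosendanin over control, horizontal axis) for the 24 regions, with 95% intervals that hold counting error only. The 7 called regions lie between -0.32 and 0.26, and AKR1C2 region 3, which has no FDR, stands at -5.45.

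AKR1B10, AKR1D1 and AKR7A2 had no called region. AKR1B10 region 1, with 9466 IP and 11094 input reads in control and 7699 and 8334 after toosendanin, stood at 0.06 (0.00 to 0.12, FDR = 0.185) in the authors' deposited table, and was called higher after centring on the median region, at 0.13, and after scaling to totals, at 0.16. For the 3 regions of AKR1D1 the authors' deposited table gives -0.39, -0.64 and -0.12, with intervals that hold 0 and at most 263 IP reads in a condition. AKR7A2 stood at -0.04 (-0.28 to 0.20, FDR = 0.908) in the authors' deposited table, an interval that leaves room for changes of the size called in AKR1C3. The AKR7A2 value turned to 0.07 after centring and 0.10 after scaling to totals.

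The other aldo-keto reductase genes were mostly low. Of 11 listed, 10 were in the authors' deposited table and 8 had an adjusted p, of which 2 rose and 0 fell (25.0%, against 31.4% of all genes; DESeq2, 2 and 0 at an unadjusted p under 0.05), with a median log2 fold change of 0.33 against -0.00023 over all genes. KCNAB2, a potassium channel subunit of this superfamily, rose by 0.997 ± 0.12 in the authors' deposited table. AKR1A1, the aldehyde reductase, rose by 0.26 ± 0.09 in the authors' deposited table, close to AKR1B1. At an adjusted p under 0.01, 1 of these genes was called. AKR1B15, AKR7A3, AKR7L, AKR7A2P1, KCNAB1 and KCNAB3 did not pass, at mean normalized counts of 52.1, 24.9, 40.9, 12.1, 27.6 and 15.8 in the authors' deposited table. AKR1E2 and AKR1C8P were listed there at 0.

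Genes that work beside the members went in both directions. Of 30 NRF2 pathway genes outside this family, 18 passed in the authors' deposited table (60.0%, against 31.4% of all genes), 11 higher and 7 lower, with a median of 0.0051. The ferritin chains FTL at 0.95 ± 0.08 and FTH1 at 0.50 ± 0.05 were among the higher, and the cystine transporter SLC7A11 at -0.99 ± 0.11 and the glutathione transferase GSTA1 at -0.77 ± 0.10 among the lower in the authors' deposited table. Of 14 bile acid synthesis genes, the pathway of AKR1C4 and AKR1D1, the authors' deposited table called 3 higher and 3 lower (42.9%, against 31.4% of all genes, median 0.04). BAAT, which conjugates bile acids, stood at 1.67 ± 0.15 there, HSD3B7, the step before AKR1D1, at 0.64 ± 0.11, the sterol hydroxylase CYP27A1 at 0.25 ± 0.07 and the acyl-CoA synthetase SLC27A2 at -0.27 ± 0.07.

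Of 17 steroid reductases, dehydrogenases and conjugating enzymes with an adjusted p, the authors' deposited table called 3 higher and 1 lower (23.5%, against 31.4% of all genes, median 0.08). SULT2A1, which sulfates steroids and bile acids, stood at 1.78 ± 0.08, HSD17B14 at 2.78 ± 0.47, HSD17B12 at 0.30 ± 0.10 and H6PD, which supplies NADPH in the endoplasmic reticulum, at -0.25 ± 0.08 in the authors' deposited table. Of 8 genes of the polyol pathway and fructose use, the authors' deposited table called 1 higher and 3 lower (50%, against 31.4% of all genes, median 0.04). SORD, which takes the sorbitol made by AKR1B1 to fructose, fell by 0.37 ± 0.09 while AKR1B1 rose in the authors' deposited table. Hexokinase HK2 stood at -0.88 ± 0.15, HK1 at 0.71 ± 0.22 and FBP1, with a mean normalized count of 9.4, at -6.48 ± 2.20 in the authors' deposited table.

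The cells carried the markers of their label. All 12 hepatocyte and HepG2 markers were counted, with mean normalized counts of 161730 for ALB and 158750 for AFP. After toosendanin 4 were higher and 3 lower in the authors' deposited table (58.3%, against 31.4% of all genes, median -0.0016). Of 6 fibroblast markers 4 were at 0, with COL1A1 and DCN among them, and the authors' deposited DESeq2 table called 0 higher and 1 lower (0 and 1 at an unadjusted p under 0.05). Of 5 endothelial markers 2 were at 0 and 0 rose or fell in the authors' deposited DESeq2 table (0 at an unadjusted p under 0.05). Of 8 blood and immune markers 3 were at 0, PTPRC and CD3E among them. Not all were low, since LYZ had a mean normalized count of 49191, beside 48209 for the hepatocyte marker AHSG, and CD68 had 1426. LYZ at -0.37 ± 0.06 fell and CD68 at 1.41 ± 0.09 rose in the authors' deposited table.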

How the data were processed

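Libraries of HepG2 cells, 3 IP and 3 input per condition, came from a stranded mRNA kit with unique molecular identifiers, per the labels' protocols. The submitters' processing notes name HISAT2, StringTie and DESeq. Which genome build, annotation and region caller served was not stated in the sources used here. The expression table, per the file headers, holds the authors' mean normalized count (a signal value), log2 fold change with standard error, Wald score and p-values, under DESeq2's column names. Its direction was checked against the summed inputs (Pearson r of 0.94 across 7937 genes). The m6A table holds whole-number counts summed by the authors, with a log2 fold change, a p-value and an FDR. Its implied errors were within 1% of the Poisson error in 99.5% of 45805 regions. Its columns summed to 42316089 (control IP), 34131862 (control input), 29094328 (toosendanin IP) and 24253006 (toosendanin input).

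Calls used the deposited adjusted p or FDR under 0.05, and nothing was refitted, since the files hold no values per library. Ratios of summed counts carry 95% Poisson intervals, which hold counting error only. The ratio test used in the alternatives was run on simulated Poisson counts, the error that it assumes. That run could not show how the test handles spread between replicates. The members and the lists of genes (other aldo-keto reductases, NRF2 pathway, bile acid synthesis, steroid enzymes, polyol pathway, carbonyl reductases, aldehyde dehydrogenases, retinoid metabolism and cell type markers) were chosen with earlier results of these data known. Named genes were all members, all of the first list and up to 4 called genes per list with the smallest adjusted p, of which 1 is not reported here; markers at 0 and those with the values printed were named after their values were seen. Likeness to other genes could not be ranked without values per library. Sequences come from RefSeq (GRCh38.p14), aligned with Biopython 1.88. Scripts ran under Python 3.11.15 with scipy 1.17.1, numpy 2.4.6, pandas 2.3.3 and matplotlib 3.10.9.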

Additional observations from a re-analysis of the deposited data

How the results depend on the processing

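The expression calls of 2 members higher and 1 lower (authors' deposited DESeq2 test) were the same at an adjusted p under 0.01, with a new adjustment over all genes with a p-value and in the upper 50% of means. With a change of at least 2-fold 0 were higher and 0 lower, since AKR1C1 stood at 1.87-fold. At an unadjusted DESeq2 p under 0.05 there were 4 of 8 members, beside 6456 of the 16552 genes with an adjusted p. No member's called direction reversed, and 12 of 15 alternative expression values stayed within 1 standard error. Of these 12, 8 were only recentred on the median of the upper 50% of means, 0.0027, and could hardly move. Of the values from the summed inputs 4 stayed and 3 moved further. The 3 were AKR1C1, from 0.90 to 0.98, AKR1C2, from -0.04 to 0.10, and AKR1C3, from -0.46 to -0.29. The m6A calls of 2 regions higher and 5 lower moved more. The share of all regions called is not given here for the settings that follow, so these counts have no background beside them. At an FDR under 0.01, 1 was higher and 1 lower. With the summed counts centred on the median region or with Fisher's exact test, 3 were higher and 2 lower, and with counts scaled to column totals 3 and 1. With the statistic divided by its robust spread of 1.30 over all regions, 0 were higher and 1 lower, which was AKR1C3 region 1. Among regions with at least 10 in each count, 2 and 1 were called, among regions with a control ratio above 1, 0 and 2, and among regions with a single gene label, or with a new adjustment over all regions (chosen after seeing the data), 2 and 2. AKR1C2 region 3, which has no deposited FDR, was 1 of the lower regions in the centred counts, by Fisher's exact test, with a control ratio above 1, with a single gene label and with the new adjustment, and with counts scaled to column totals it was the only lower one. No member region's called direction reversed, and 34 of 48 alternative m6A values stayed within 1 counting error; the cause of the other shifts was not tested. No paired analysis was possible because the files hold no values per library, and leaving out each replicate was not run for the same reason. Depth limits AKR1C4, AKR1D1 and the thinly counted AKR1C2 regions 3, 7 and 8.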

Other observations

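Other carbonyl and aldehyde enzymes of these cells also split. Of 14 short-chain carbonyl reductases with an adjusted p, the authors' deposited table called 3 higher and 1 lower (28.6%, against 31.4% of all genes, median 0.08). RDH11, a retinal reductase, stood at 1.16 ± 0.46, RDH10, which makes retinal, at 0.71 ± 0.13, DHRS1 at 0.24 ± 0.09 and DHRS2 at -0.92 ± 0.04 in the authors' deposited table. Of 17 genes of the aldehyde dehydrogenase family with an adjusted p, the authors' deposited table called 2 higher and 4 lower (35.3%, against 31.4% of all genes, median -0.08). ALDH1B1 stood at 0.60 ± 0.08, ALDH18A1 at -0.53 ± 0.06, ALDH7A1 at -0.50 ± 0.08 and ALDH1L1 at -0.46 ± 0.07 there. Of 12 retinoid genes with an adjusted p, the authors' deposited table called 3 higher and 2 lower (41.7%, median 0.57), with the retinol carrier RBP4 at 0.44 ± 0.08 and ALDH1A1, which makes retinoic acid, at -0.21 ± 0.06. AKR1B10, the retinal reductase among the members, did not pass beside them.

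The m6A ratios of the close relatives AKR1B15 and AKR1A1 were not called. AKR1B15 had 387 IP and 239 input reads in control and 234 and 135 after toosendanin, a log2 change of 0.05 in the authors' deposited table. Those input reads are sums over 3 libraries. The mean normalized count of 52.1 for AKR1B15 in the authors' deposited table is a mean over libraries, so they are not on one scale. Whether the input reads of AKR1B15 include reads of AKR1B10 was not tested. AKR1A1 had 93 and 153 reads in control and 92 and 142 after toosendanin, at 0.02 in the authors' deposited table with no FDR. Its 153 control input reads, though a sum over 3 libraries, were few beside its mean normalized count of 3219 there, a mean over libraries.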
